A study of Mus musculus with 9 samples.

Results

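The genes described here encode the proteins of the cytosolic ribosome, the particle that translates messenger RNA in the cell body. They were chosen by name and by a count minimum. By name they are protein-coding genes with an Rpl or Rps symbol of the standard form, together with Rplp0, Rplp1, Rplp2 and Rpsa. The count minimum was at least 10 counts in at least 3 of the 9 libraries. Of 84 genes with such a symbol, 81 met the count minimum, out of 47728 genes in the files and 13094 genes tested. They comprise 49 genes of the large subunit, the stalk proteins included, and 32 genes of the small subunit, and they lie on 19 chromosomes. Rpl29 met the count minimum only through its 3 day 0 libraries, so it could enter only by being higher there. The 3 genes left out were Rpl3l, the paralog of Rpl3 known from striated muscle, with 1 to 6 counts per library, Rpl39l with at most 1 count, and Rpl10l with 0 counts in every library.

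The samples are cultures of C2C12, a mouse myoblast line that leaves the cell cycle and fuses into myotubes when serum is lowered. A Control, a Cry1 knockdown and a Cry2 knockdown were each collected at day 0, in growth medium with 10% fetal bovine serum, and at days 3 and 5 after the change to 5% horse serum with 1% insulin, transferrin and selenium. Cry1 and Cry2 encode cryptochromes, the repressors of the circadian clock. PolyA RNA was sequenced, with 1 library for every genotype at every day, 9 in all. How the knockdowns were made, and what the Control cells carry in their place, is not given in the sources used here. All 3 genotypes went through the same change of medium, so day and medium cannot be told apart.

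Ribosomal proteins are made in nearly equal numbers, since each ribosome holds a single copy of most of them, and growing cells spend much of their transcription on them. Their messenger RNAs begin with a tract of pyrimidines, the terminal oligopyrimidine (TOP) motif, through which translation of the whole family follows nutrient and growth factor signals by way of mTORC1. Their genes are short and highly transcribed, and in mammals they have left many processed pseudogenes, intronless copies that resemble the spliced messenger RNA. In muscle, ribosome production is high in dividing myoblasts and in growing fibres.

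Library totals were 4731020 to 6412279 counts, lowest in the Cry2 knockdown at day 3. Levels are given as CPM, the count relative to the library total after TMM scaling, and 3 counts, the limit that a count of 0 allows, equal 0.468 to 0.634 CPM. Cry1 was at 6.65 to 8.30 CPM in the Cry1 knockdown libraries and at 13.1 to 22.9 CPM in the others. Cry2 was at 7.27 to 16.6 CPM in the Cry2 knockdown and at 19.2 to 68.0 CPM elsewhere. The summed level of 10 skeletal muscle markers, none of them at 0, averaged 3412 CPM at day 0, 18567 CPM at day 3 and 21952 CPM at day 5, and that of 6 fibroblast markers, 1 of them at 0, averaged 6043, 11901 and 17248 CPM. In contrast 5 endothelial markers summed to at most 3.02 CPM and 6 blood markers to at most 2.59 CPM in any library. Each genotype thus has n = 3 libraries that differ in day and are not replicate cultures. The additive edgeR fit therefore sets a day difference against disagreement between genotypes, and a genotype difference against disagreement between days. Any difference between cultures that persisted over the days cannot be told apart from the knockdown, and a comparison within a single day has no replicate behind it.

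The sequences around the transcription start were searched for the pyrimidine tract. RefSeq promoter windows (GRCm38.p6, the same coordinates as mm10) matched 61 of the 81 genes. A run of at least 8 C or T on the gene's strand, between 50 bases before and 50 bases after the start, was present in 51 of these 61 windows (83.6%) and in 31.4% of the 9490 tested genes with a window. This wider search was added after a first search for a run of at least 5 across the start itself, which 27.9% of the members and 9.42% of the tested genes had. Below are 6 windows of 60 bases before and 20 bases from the start on, with the longest run of C and T in the 20 bases either side of the start in capitals. They belong to 3 genes that fell from day 0 to day 5 (Rplp0, Rps16, Rpl28), to Rpl22l1, which fell after day 3, and to Rps27 and Rpl14, which rose by day 3.
Rplp0 (chr5:115559407-115559486, plus strand): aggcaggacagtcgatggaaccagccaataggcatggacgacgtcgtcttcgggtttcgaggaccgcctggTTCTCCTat
Rps16 (chr7:28350629-28350708, plus strand): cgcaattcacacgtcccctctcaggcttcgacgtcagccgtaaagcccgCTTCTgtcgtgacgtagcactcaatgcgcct
Rpl28 (chr7:4792905-4792984, plus strand): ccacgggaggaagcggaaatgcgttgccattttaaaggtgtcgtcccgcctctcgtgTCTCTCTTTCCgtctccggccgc
Rpl22l1 (chr3:28805448-28805527, plus strand): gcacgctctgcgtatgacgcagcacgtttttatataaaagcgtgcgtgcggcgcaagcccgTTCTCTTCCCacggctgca
Rps27 (chr3:90213629-90213708, minus strand): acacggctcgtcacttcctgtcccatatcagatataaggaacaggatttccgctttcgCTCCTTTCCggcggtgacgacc
Rpl14 (chr9:120571457-120571536, plus strand): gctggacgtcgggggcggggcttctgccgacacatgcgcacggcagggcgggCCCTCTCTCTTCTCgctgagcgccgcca
The capital run was 14 bases in Rpl14, 11 in Rpl28, 10 in Rpl22l1, 9 in Rps27, 7 in Rplp0 and 5 in Rps16. In Rpl28, Rps27 and Rpl14 the run spans the annotated start, and in Rps16 it ends before it. Genes with long runs are thus found among those that fell and among those that rose.

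Other letters were searched on both strands of the whole windows, from 250 bases before to 50 bases after the start. The ETS-type core CCGGAAG was present in 23 of 61 members (37.7%) and in 19.0% of tested genes. The E-box CACGTG, the site at which cryptochromes act on the clock activators, was present in 5 members (8.20%) and in 10.4% of tested genes. The 5 members were Rpl13a, Rpl14, Rpl19, Rpl23 and Rpl34. AAGATGGC, read by YY1, was in 8.20% of members and 4.97% of tested genes, GGGCGG (SP1) in 62.3% and 65.9%, and TATAAA in 9.84% and 7.03%. None of these words contains another of them, and a match describes the letters only. A further feature of the loci is the small nucleolar RNA gene, which is often carried in an intron of a ribosomal protein gene and guides modification of ribosomal RNA. Such a gene lay inside 30 of the 81 members (37.0%), 58 in all, and inside 1.5% of the other protein-coding genes tested.

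As a family, the ribosomal protein genes were among the most abundant transcripts. Their mean level had a median of 314 CPM, against 28.9 CPM for all tested genes. Per kilobase of transcript the highest means were those of Rplp1 (1448 CPM per kb), an acidic protein of the stalk, Rpl8 (1340), Rps15 (1229) and Rplp0 (1187), the base of the stalk that recruits translation factors. The lowest were Rps2 (32.9 CPM per kb), Rpl21 (5.90), Rps23 (2.93) and Rpl29 (2.47), and 70 of the 81 members lay between 100 and 1000. Rps20 stood at 145 CPM per kb over an annotated transcript of 3706 bases, a length that lowers its per-length level.

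The family's share of each library fell over differentiation in every genotype. The 81 genes held 3.56% of counts in the Control at day 0 (95% Wilson interval 3.55 to 3.58), 2.99% at day 3 and 2.45% at day 5. The shares of the Cry1 knockdown were 3.42%, 3.20% and 2.73%, and those of the Cry2 knockdown 3.25%, 3.05% and 2.15%. The 3 day 5 shares lay below the 3 day 3 shares, which lay below the 3 day 0 shares, with no overlap. These intervals cover counting error only, and no test was made of the share. In summed CPM the change from day 0 to day 5 was -23.2% for the Control, -10.3% for the Cry1 knockdown and -25.3% for the Cry2 knockdown. From day 0 to day 3 the same quantity was -9.05%, -0.747% and 0.0019%. The mitochondrially encoded genes moved the other way, from 0.695 to 1.22% of counts at day 0 to 1.92 to 2.12% at day 5, and with them left out of the total the family's shares still fell from 3.29 to 3.59% at day 0 to 2.20 to 2.79% at day 5. The muscle and fibroblast marker sums were on average higher at days 3 and 5 than at day 0, and their part in the shares was not tested. In bulk RNA, fewer cells of a type and less RNA per cell cannot be told apart.

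**Figure D1:**
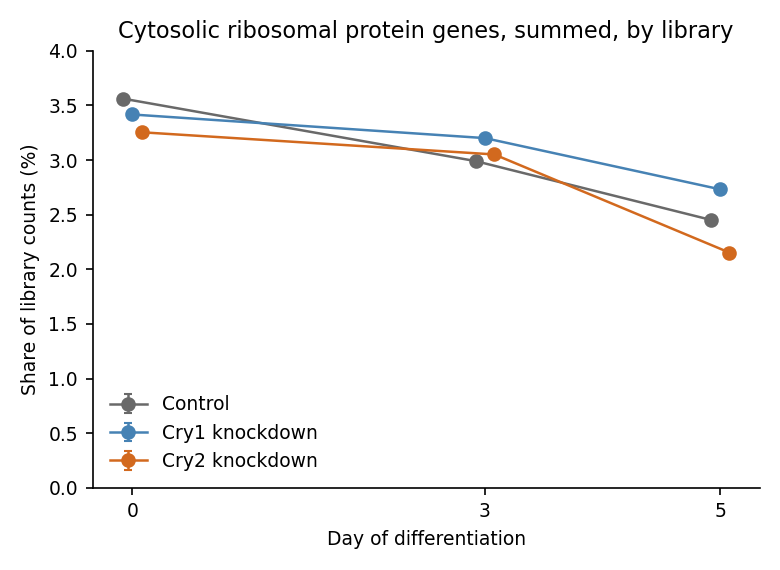
Share of library counts (%, y axis) held by the 81 ribosomal protein genes, summed, against day of differentiation (x axis), 1 point per library, coloured by genotype and shifted slightly sideways; bars are 95% Wilson intervals and are smaller than the points. Shares lie between 3.25 and 3.56% at day 0 and between 2.15 and 2.73% at day 5.

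From day 0 to day 5, 37 of the 81 genes fell and 2 rose (adjusted p under 0.05, edgeR). Of all tested genes 27.9% fell and 28.3% rose in the same comparison. The median log2 fold change of the members was -0.29, beside 0.01 for all tested genes, and 69 of 81 members had a negative value. Without Rpl29, which entered through day 0, 36 of 80 members fell. Among small-subunit genes 19 of 32 fell and 0 rose, and among large-subunit genes 18 of 49 fell and 2 rose. Levels at day 5 lay below those at day 0 in all 3 genotypes, with no overlap, for 33 of the 81 members and for 29% of tested genes. Of the 39 members called, 25 were called in each of the 9 fits that leave out 1 library.

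The stalk genes were part of the fall. Rplp0 (ENSMUSG00000067274, chromosome 5, 115559467 to 115563727, plus strand), the most abundant member by CPM, was at 2232, 1992 and 1898 CPM at day 0 in the Control, Cry1 knockdown and Cry2 knockdown. It was at 1504, 1692 and 1630 CPM at day 3 and at 1212, 1329 and 1022 CPM at day 5. The libraries of the 3 days did not overlap. The fall from day 0 to day 5 was -0.79 ± 0.11 on the log2 scale (SE, n = 3 libraries per day, adjusted p = 0.000258, edgeR). Rplp1 was at 855, 856 and 742 CPM at day 0 and at 613, 661 and 503 CPM at day 5, a fall of -0.47 ± 0.08 (adjusted p = 0.00106, edgeR), again without overlap. Rplp2, its partner in the stalk dimer, was at 462, 456 and 396 CPM at day 0, and its 356, 400 and 321 CPM at day 5 reached into the range of day 0. Its fall of -0.29 ± 0.08 passed the threshold (adjusted p = 0.00985, edgeR). Rpsa, a protein of the small subunit also known as a laminin receptor, was at 736, 737 and 800 CPM at day 0 and at 464, 520 and 349 CPM at day 5, a fall of -0.77 ± 0.15 (adjusted p = 0.00196, edgeR). Each Rpsa library of day 5 lay below each library of day 0.

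Leaving aside Rpl29, the largest fall was that of Rps16, a small-subunit protein whose tail touches the transfer RNA. Rps16 (chromosome 7) was at 551, 504 and 465 CPM at day 0 in the Control, Cry1 knockdown and Cry2 knockdown, at 449, 275 and 492 CPM at day 3, and at 237, 218 and 146 CPM at day 5. The low value at day 3 was that of the Cry1 knockdown, and every day 5 value lay below every other. The fall from day 0 was -1.34 ± 0.21 (SE, adjusted p = 0.000583, edgeR) and from day 3 was -1.01 ± 0.21 (adjusted p = 0.00914). Its pseudogene Rps16-ps2 held 47, 47 and 35 counts at day 0 and 80, 110 and 87 counts at day 5, and with the copies summed in the fall from day 0 was -1.24 (adjusted p = 0.000399). Rpl28, a large-subunit protein, was at 360, 318 and 356 CPM at day 0, 235, 304 and 230 CPM at day 3 and 218, 160 and 182 CPM at day 5, and it fell by -0.89 ± 0.14 (adjusted p = 0.000596). Rps19, an assembly factor of the small subunit whose loss causes a human anaemia, was at 243, 238 and 210 CPM at day 0 and at 168, 174 and 118 CPM at day 5, with a fall of -0.60 (adjusted p = 0.000833).

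The 2 members that rose from day 0 to day 5 were Rpl35a and Rpl17, both of the large subunit. Rpl35a was at 29.8, 39.6 and 36.2 CPM at day 0 in the Control, Cry1 knockdown and Cry2 knockdown, at 44.9, 43.2 and 48.1 CPM at day 3, and at 57.0, 51.9 and 48.9 CPM at day 5. Every later library lay above every day 0 library. The rise was 0.58 ± 0.12 (SE, adjusted p = 0.00279, edgeR), 0.54 with its copies summed in, and it was called in each of the 9 fits without 1 library. Rpl17 was at 74.9 to 86.7 CPM at day 0 and at 116, 135 and 84.9 CPM at day 5, where the Cry2 knockdown lay within the day 0 range. Its rise of 0.44 ± 0.16 (adjusted p = 0.0473) was called in 4 of those 9 fits.

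**Figure D2:**
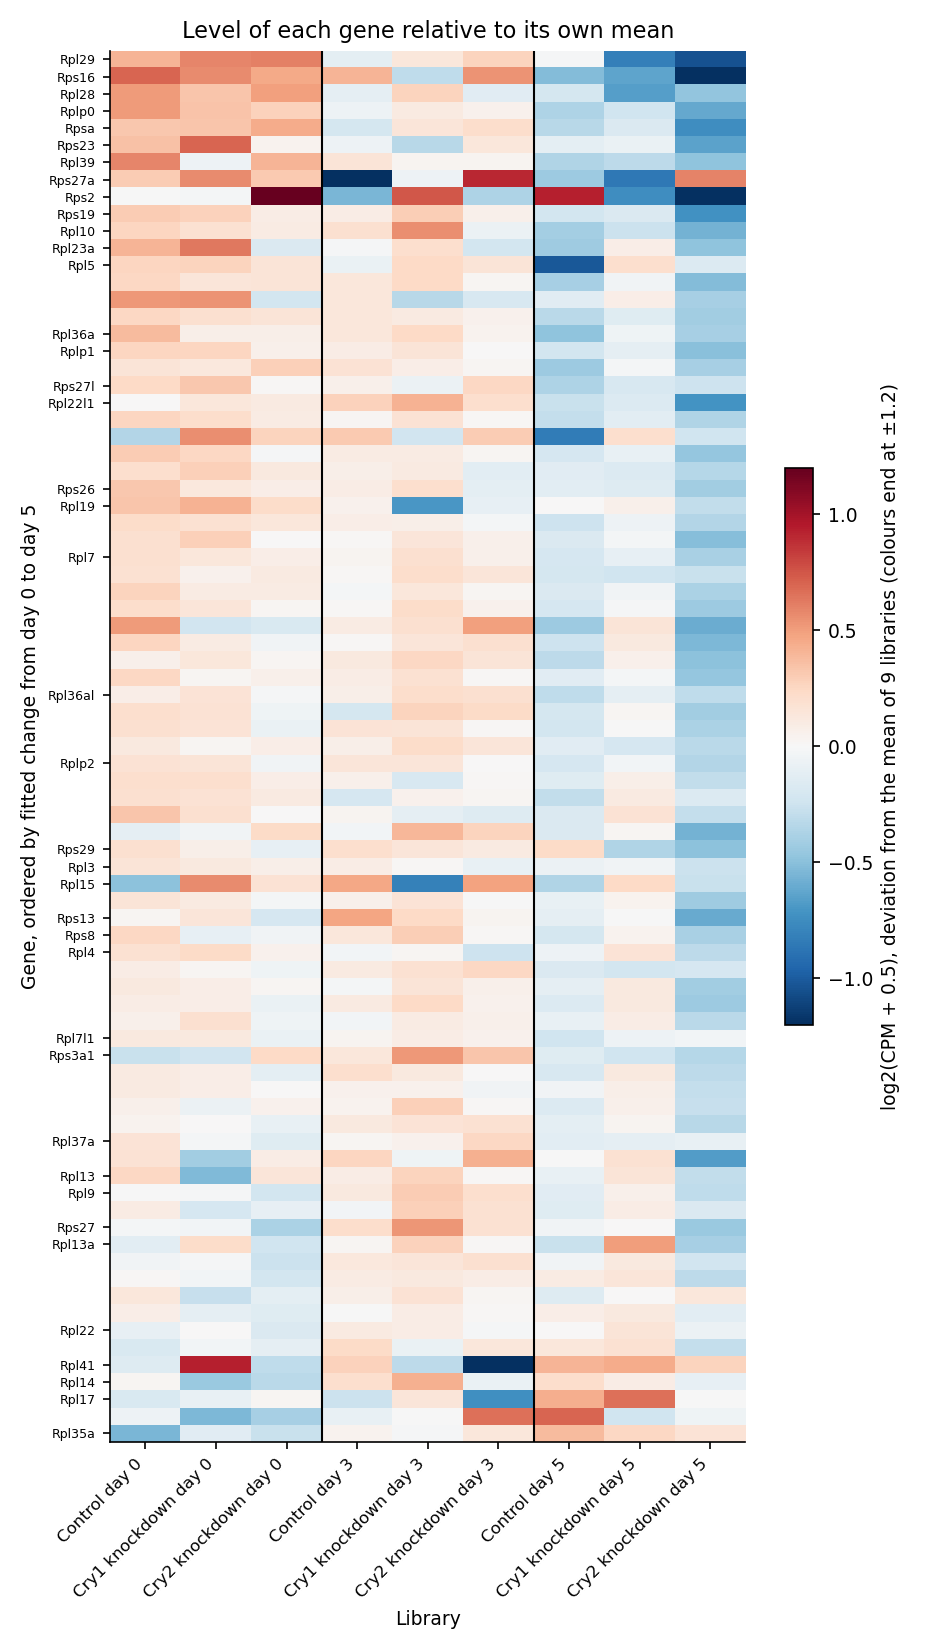
Level of each of the 81 genes (rows, ordered by the fitted change from day 0 to day 5) in each of the 9 libraries (columns, grouped by day), as log2(CPM + 0.5) minus the gene's mean over the 9 libraries; red is above and blue below the mean, and selected genes are labelled. Most rows are bluest at day 5, and rows such as Rps2, Rps27a, Rpl15 and Rpl41 vary between libraries of the same day.

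More members fell after day 3 than before it, although in the Control alone the share of raw counts dropped about as much before day 3 as after. In summed CPM, which is TMM-scaled, the Control changed by -9.05% up to day 3 and by -15.5% after it. After day 3 the Cry1 knockdown changed by -9.61% and the Cry2 knockdown by -25.3%. From day 0 to day 3, 7 members rose and 6 fell, beside 25.4% of tested genes rising and 25.7% falling, so the share of members called was below that of all genes in each direction. The median of the members was -0.01. Within the Control, 57 of 81 members were lower at day 3 (median -0.11), against 34 in the Cry1 knockdown (0.06) and 33 in the Cry2 knockdown (0.04). Among the 13 members called, only Rps27 was called in each of the 9 fits without 1 library. From day 3 to day 5, 34 members fell and 1 rose, beside 13.2% of tested genes falling and 14.7% rising, with a median of -0.29. Of the small-subunit genes 20 of 32 fell, and all 32 had a negative value. Of the large-subunit genes 14 of 49 fell. Levels at day 5 lay below those at day 3 in all 3 genotypes for 38 of 81 members and for 17.8% of tested genes. The number called after day 3 moved when single libraries were left out. It was 10 without the Cry2 knockdown at day 5 and 11 without the Cry2 knockdown at day 3. Without the Control at day 5 it was 15, and without the Cry1 knockdown at day 3 it was 17. A fit with 1 library fewer has fewer residual degrees of freedom for every gene. The share of all tested genes called in these fits is not given here. Only 9 of the 35 members were called in each of the 9 fits.

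Rps27, a zinc-binding protein of the small subunit, rose and then fell back. It was at 146, 145 and 114 CPM at day 0 in the Control, Cry1 knockdown and Cry2 knockdown, at 172, 214 and 169 CPM at day 3 and at 145, 149 and 109 CPM at day 5. The day 3 libraries lay above the other 6. The rise to day 3 was 0.46 ± 0.09 (SE, adjusted p = 0.00267, edgeR) and the fall after it -0.47 ± 0.09 (adjusted p = 0.00625). Rps27 shared 98.6% of its words, short stretches of transcript sequence, with other genes, the highest share of any member. These were 9 genes, 8 of them pseudogenes. Only 2 pseudogene copies were summed into Rps27, and they held at most 1 count per library. The gene that is not a pseudogene was not summed in. Whether reads that match several genes bear on these changes was not tested. Rpl14, of the large subunit, was at 293, 211 and 231 CPM at day 0 and 332, 387 and 273 CPM at day 3, a rise of 0.43 ± 0.12 (adjusted p = 0.017). The Cry2 knockdown value of day 3 was below the Control value of day 0, so the days overlapped. Rps3a1 rose by 0.41 (adjusted p = 0.0393) and then fell by -0.57 (adjusted p = 0.0191). With its copies summed in, the rise of Rps3a1 was 0.22 and did not pass (adjusted p = 0.0772). Rpl35a, by 0.37, and Rpl9, by 0.29, completed the 5 largest rises to day 3 (adjusted p = 0.0312 and 0.0223), and Rps13 and Rps25 rose by 0.26 each.

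Among the 6 members that fell by day 3, Rpl19 was at 393, 416 and 364 CPM at day 0 and at 322, 191 and 291 CPM at day 3. Its fall of -0.56 ± 0.17 (SE, adjusted p = 0.0227, edgeR) included a low value in the Cry1 knockdown. Rpl28 fell by -0.42, Rplp0 by -0.34, Rpl23a by -0.31 and Rpl4 by -0.24 (adjusted p = 0.0309, 0.0267, 0.0386 and 0.0477). With copies summed in, Rpl23a turned to a rise of 0.38 (adjusted p = 0.0245). The sixth was Rpl7a at -0.19. These 6 are all large-subunit genes.

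After day 3, Rpl10 was among the 5 largest falls. It encodes a protein that joins the large subunit last, once the particle is in the cytoplasm. Rpl10 was at 309, 397 and 256 CPM at day 3 and at 203, 226 and 182 CPM at day 5, a fall of -0.64 ± 0.11 (SE, adjusted p = 0.00318, edgeR) without overlap. Its level at day 0 was 322, 306 and 288 CPM. Rps19 fell by -0.52 between days 3 and 5 (adjusted p = 0.00626). The single rise was that of Rpl17, by 0.64 (adjusted p = 0.0212), called in 5 of 9 fits without 1 library.

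**Figure D3:**
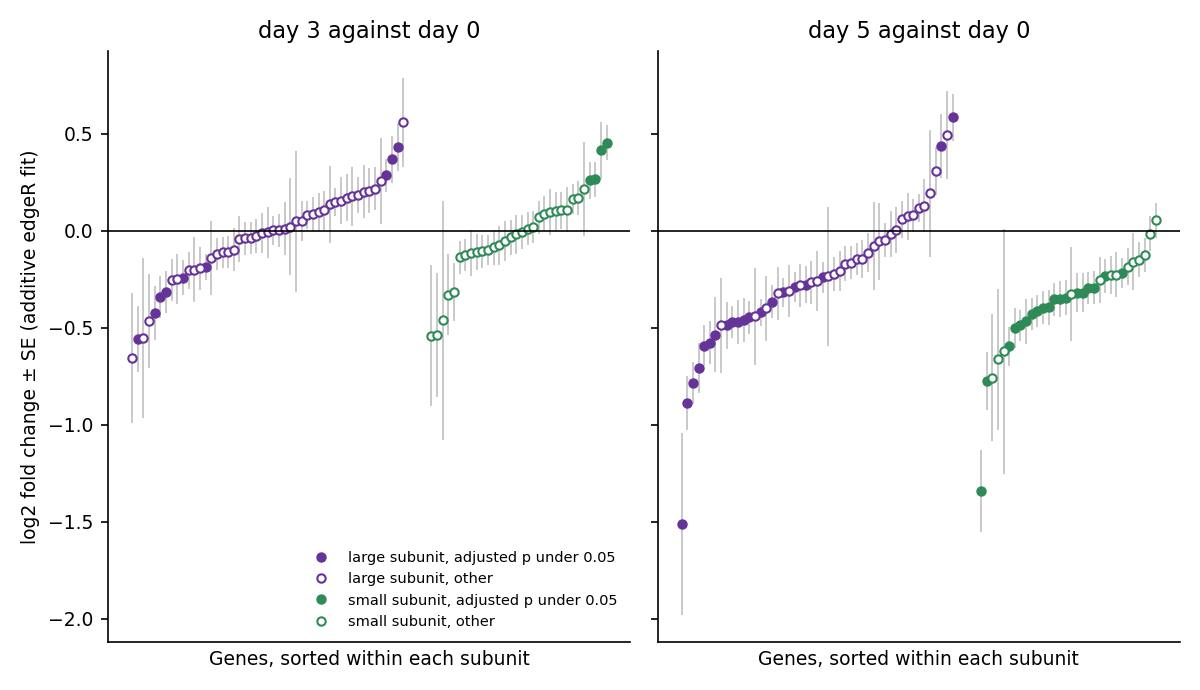
Fitted log2 fold change with its SE (y axis) of each ribosomal protein gene from day 0 to day 3 (left) and from day 0 to day 5 (right), genes sorted within the large and small subunit along the x axis; filled points passed an adjusted p of 0.05. At day 3, 13 points are filled, 7 above 0 and 6 below it, and at day 5, 37 of the 39 filled points lie below 0.

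Some ribosomal proteins have a paralog, which in some pairs can stand in the same place of the ribosome. In 4 pairs of a gene and its paralog or homologue both sides were measured. Rpl22l1, the paralog of Rpl22, was at 68.0, 74.7 and 73.3 CPM at day 0 in the Control, Cry1 knockdown and Cry2 knockdown, at 82.5, 91.1 and 78.1 CPM at day 3 and at 56.5, 60.6 and 41.2 CPM at day 5. The day 5 libraries were the lowest and the day 3 libraries the highest. Its fall from day 3 to day 5 was -0.68 ± 0.11 (SE, adjusted p = 0.00352, edgeR). Rpl22 itself stayed between 223 and 281 CPM in the 9 libraries, with -0.03 ± 0.07 over the same interval (adjusted p = 0.793). The ratio of Rpl22l1 to Rpl22 in CPM was 0.289, 0.294 and 0.329 at day 0, 0.304, 0.341 and 0.313 at day 3 and 0.223, 0.215 and 0.172 at day 5. The ratio itself was not tested.

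Rps27l, the paralog of Rps27, was at 82.1, 87.0 and 70.4 CPM at day 0 and at 53.9, 61.1 and 58.4 CPM at day 5, a fall of -0.47 ± 0.12 (SE, adjusted p = 0.00805, edgeR). Rps27 over the same interval had -0.01 ± 0.09 (adjusted p = 0.903). The ratio of Rps27l to Rps27 was 0.562 to 0.615 at day 0 and 0.372, 0.410 and 0.536 at day 5, lower in each genotype. Rpl36al and Rpl36a both fell by day 5, by -0.32 and -0.49 (adjusted p = 0.00534 and 0.00733), with ratios of 0.637 to 0.887. Rpl7 fell by -0.37 (adjusted p = 0.0055), and Rpl7l1, a homologue that works in ribosome assembly, had -0.16 (adjusted p = 0.136), with ratios of 0.145 to 0.207. Rpl3 fell by -0.24 (adjusted p = 0.0297), from 1047 to 1113 CPM at day 0 to 835 to 969 CPM at day 5, while its muscle paralog Rpl3l stayed at or below 6 counts in each library.

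Over the 3 days no member passed the test in either knockdown against the Control. In the Cry1 knockdown 0 of 81 members passed, beside 2.67% of tested genes, with 3 members at an unadjusted p under 0.05 and 1 call by DESeq2. The member median was 0.06, beside 0.01 for all tested genes. In the Cry2 knockdown 0 of 81 passed, beside 0.084% of tested genes, with 12 members at an unadjusted p under 0.05 and 0 calls by DESeq2. The member median was -0.12, beside 0.00 for all tested genes, and 68 of 81 members had a negative value. The 3 lowest p-values belonged to Rps13, at -0.39 ± 0.10 (adjusted p = 0.178, edgeR), Rps29 at -0.37 (adjusted p = 0.264) and Rps26 at -0.25 (adjusted p = 0.283). Rps26 was at 361, 306 and 264 CPM in the Control at days 0, 3 and 5, where the Cry2 knockdown had 304, 264 and 215 CPM, lower at each day.

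Within single days the members' median log2 ratio of the Cry2 knockdown to the Control took the values -0.16, -0.01 and -0.20 for days 0, 3 and 5. The numbers of members lower in the Cry2 knockdown were 68, 44 and 70 of 81, where 47.4 to 51.0% of all tested genes were lower. Against the Control, the Cry1 knockdown had member medians of -0.03, 0.10 and 0.15, with 52, 23 and 15 of 81 members lower. The medians of all tested genes lay between -0.01 and 0.02 in these 6 comparisons. The median of the Cry2 knockdown was thus below 0 at days 0 and 5 and near 0 at day 3, and each of these values compares 1 library with 1 library.

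**Figure D4:**
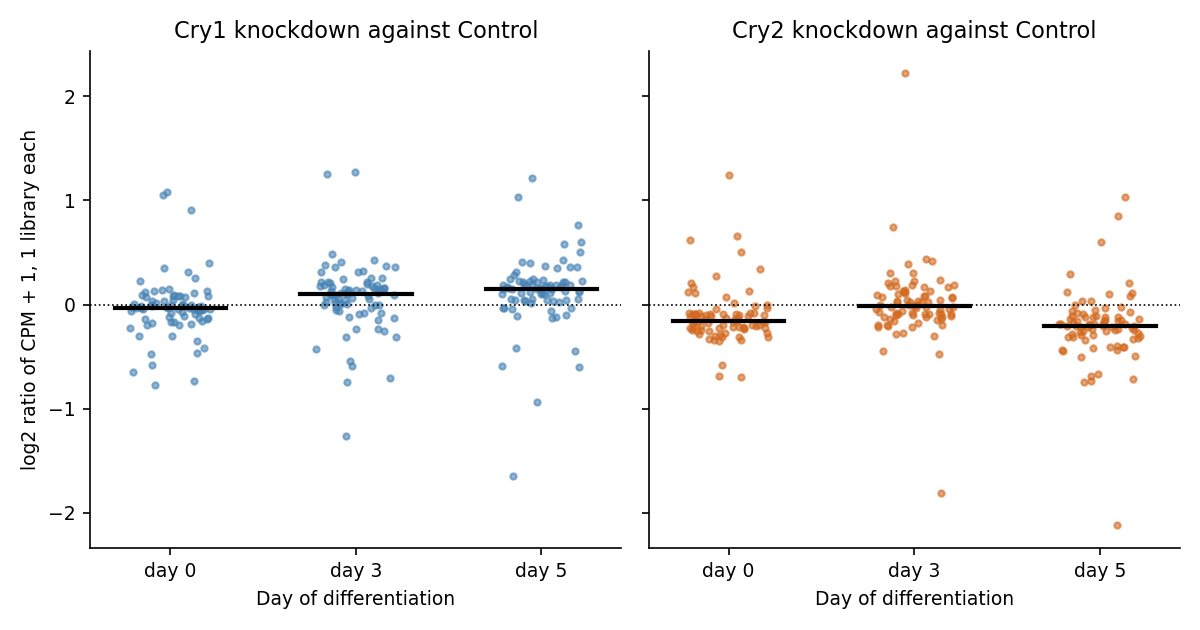
Log2 ratio of CPM + 1 (y axis) of each of the 81 genes in the Cry1 knockdown (left) and the Cry2 knockdown (right) against the Control library of the same day (x axis), with the median as a black bar and points spread sideways at random. The bars lie at -0.03, 0.10 and 0.15 on the left and at -0.16, -0.01 and -0.20 on the right.

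Set against each other, the knockdowns differed in 4 members, all lower in the Cry2 knockdown, or 4 of 81 beside 3.69% of tested genes. The median was -0.17, with 69 of 81 members negative, and the day medians were -0.11, -0.09 and -0.37 at days 0, 3 and 5. Rpl13a, which also serves outside the ribosome in silencing of inflammatory transcripts, stood at 548, 570 and 667 CPM at days 0, 3 and 5 of the Cry1 knockdown series. In the Cry2 knockdown it stood at 398, 475 and 356 CPM. The Control lay at 431, 477 and 391 CPM, close to the Cry2 knockdown. The knockdowns differed by -0.55 ± 0.12 (SE, 3 libraries each, adjusted p = 0.0288 in edgeR). Rps13 was at 143, 153 and 129 CPM in the Cry1 knockdown against 113, 132 and 84.9 CPM with the Cry2 knockdown, a difference of -0.38 ± 0.10 (adjusted p = 0.0452), and Rps27 differed by -0.38 ± 0.09 (adjusted p = 0.0379). Rps13 and Rps27 were lower in the Cry2 knockdown on each day, and the ranges of the genotypes overlapped. With copies summed in, Rps13 did not pass (adjusted p = 0.0584), and on its own counts it was called in 1 of 9 fits without 1 library. Rpl23a, which sits at the exit of the peptide tunnel, differed by -0.61 ± 0.11 (adjusted p = 0.0157) in its own counts. With its pseudogene copies summed in, the value for Rpl23a was 0.08 (adjusted p = 0.734). With copies summed in, 2 of the 4 remained called. None of the 4 was called in every fit without 1 library, and without the Cry1 knockdown at day 5 the number called was 0.

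The response to differentiation, days 3 and 5 against day 0, was compared between each knockdown and the Control, and no member passed. For the Cry1 knockdown 0 of 81 passed, beside 0% of 13608 tested genes, with 10 members at an unadjusted p under 0.05 and 0 calls by DESeq2. The member median was 0.15, beside -0.02 for all tested genes. The lowest p was that of Rpl13, at 0.99 ± 0.17 (adjusted p = 0.318, edgeR). Rpl13 was at 339 CPM in the Cry1 knockdown at day 0 and at 579 CPM in the Control, and at 545 and 460 CPM at day 5. Its pseudogene copies held 844 counts in the Cry1 knockdown at day 0, where the Control had 168, and 33 and 29 at day 5. With copies summed in, the day 0 levels were 464 and 604 CPM. The response was not fitted with copies summed in. For the Cry2 knockdown 0 of 81 passed, beside 0.0367% of tested genes, with 5 members at an unadjusted p under 0.05, 0 calls by DESeq2 and a median of 0.03. This contrast does not address the interval from day 3 to day 5, over which a difference between genotypes was not tested.

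Of the 81 members, 80 share at least a 50-base stretch with an annotated pseudogene. The median member shared 61.2% of its 50-base words with other genes, and 53 members shared at least 50%. How the deposited counts treated reads that match several places is not given in the sources used here. The spread of a gene about the additive effects of genotype and day, on log2(CPM + 0.5), had a median of 0.139 over all members, 0.110 over the 28 members below 50% and 0.168 over the other 53. Tested genes of at least 50 CPM outside the family had 0.107 (n = 4530). A spread above 0.3 was found in 13 members, 11 of which shared at least 50% of their words, beside 53 of all 81. In 10 of the 13 it was lower once copies were summed in. Rpl41 is among those 10 (0.5810 and 0.5804), although no copy was summed into it. Over all 81 members the median spread with copies summed in was 0.132. The 13 were picked for their spread, and whether copies account for it was not tested. The correlation over members between the share of words and the spread was weak (Spearman rho = 0.19), and that between the mean level per kilobase and the spread was larger and negative (rho = -0.41). Both are descriptions over 81 genes of the same libraries.

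The 3 coding stretches below are 50-base words that the gene and its most counted copy share letter for letter, printed because a read that lies within them fits both places equally. Coordinates are those of the parent gene in GRCm38.
Rps27a, shared with Rps27a-ps2 (chr11:29546330-29546379, minus strand): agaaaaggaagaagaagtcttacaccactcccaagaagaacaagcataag
Rps2, shared with Gm5786 (chr17:24720988-24721037, plus strand): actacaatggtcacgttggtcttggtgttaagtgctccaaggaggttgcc
Rps23, shared with Gm15464 (chr13:90923628-90923677, plus strand): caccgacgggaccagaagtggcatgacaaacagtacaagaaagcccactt
The Rps2 word occurs in 11 of the copies considered, the Rps23 word in 3 and the Rps27a word in 2.

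Rps27a, Rpl15 and Rpl41 were singled out after their values were seen, for their spread. Rps27a is made as a fusion with ubiquitin. It had 1193, 333 and 562 counts in the Control libraries of days 0, 3 and 5, 1413, 813 and 441 in those of the Cry1 knockdown and 1092, 1249 and 1133 in those of the Cry2 knockdown. Its copies held 2, 8 and 726 counts in the Control libraries, 5, 215 and 565 in those of the Cry1 knockdown and 4, 4 and 4 in those of the Cry2 knockdown. Nearly all of these lay on Rps27a-ps2 (chromosome 9, 83409660 to 83410126), which was at 0 or 1 counts in 6 libraries and at 724, 213 and 559 in the others. In those 3 libraries the gene held fewer counts than in any other library but the Control at day 3, where the copies were low too. The spread of Rps27a was 0.67 alone and 0.70 with copies. Rps2, a protein at the messenger RNA entry of the small subunit, had 192, 114 and 293 counts in the Control libraries, 188, 286 and 94 in those of the Cry1 knockdown and 421, 103 and 62 in those of the Cry2 knockdown. Its copies held 567, 410 and 137, then 556, 143 and 325, then 451, 286 and 288 counts, or 64.3% of the sum. With these summed in, its spread was 0.18 in place of 1.06, and its level was 111, 110 and 141 CPM at day 0 in the Control, Cry1 knockdown and Cry2 knockdown and 79.5, 73.9 and 66.0 CPM at day 5.

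The low per-length level of Rpl29 stood beside copies that held most of the counts in every library. Copies of Rps23 held 86.9% of the counts summed over all libraries, but in 6 libraries they held fewer than the gene. Rpl29 had 13, 15 and 14 counts in the day 0 libraries, 7, 9 and 8 at day 3 and 7, 3 and 2 at day 5, while its 26 copies held 133 to 168 counts per library. Alone it fell from day 0 to day 5 by -1.51 ± 0.47 (SE, adjusted p = 0.0215, edgeR). With copies summed in the value was 0.29 (adjusted p = 0.0742), so its direction turned. Rps23 had 8 to 31 counts, and its copies 6 to 17 counts in 6 libraries but 727 in the Control at day 0, 76 in the Cry2 knockdown at day 3 and 127 at day 5, mostly on Gm15464. Its spread was therefore larger with copies, 2.06 against 0.32. Rpl15 had a spread of 0.67 alone and 0.53 with copies. Rpl41 stood at 672 CPM in the Cry1 knockdown at day 0 and at 120 CPM in the Cry2 knockdown at day 3, a spread of 0.58. It shared 53.1% of its words with 4 other genes, 3 of them pseudogenes, but no copy was summed into it.

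**Figure D5:**
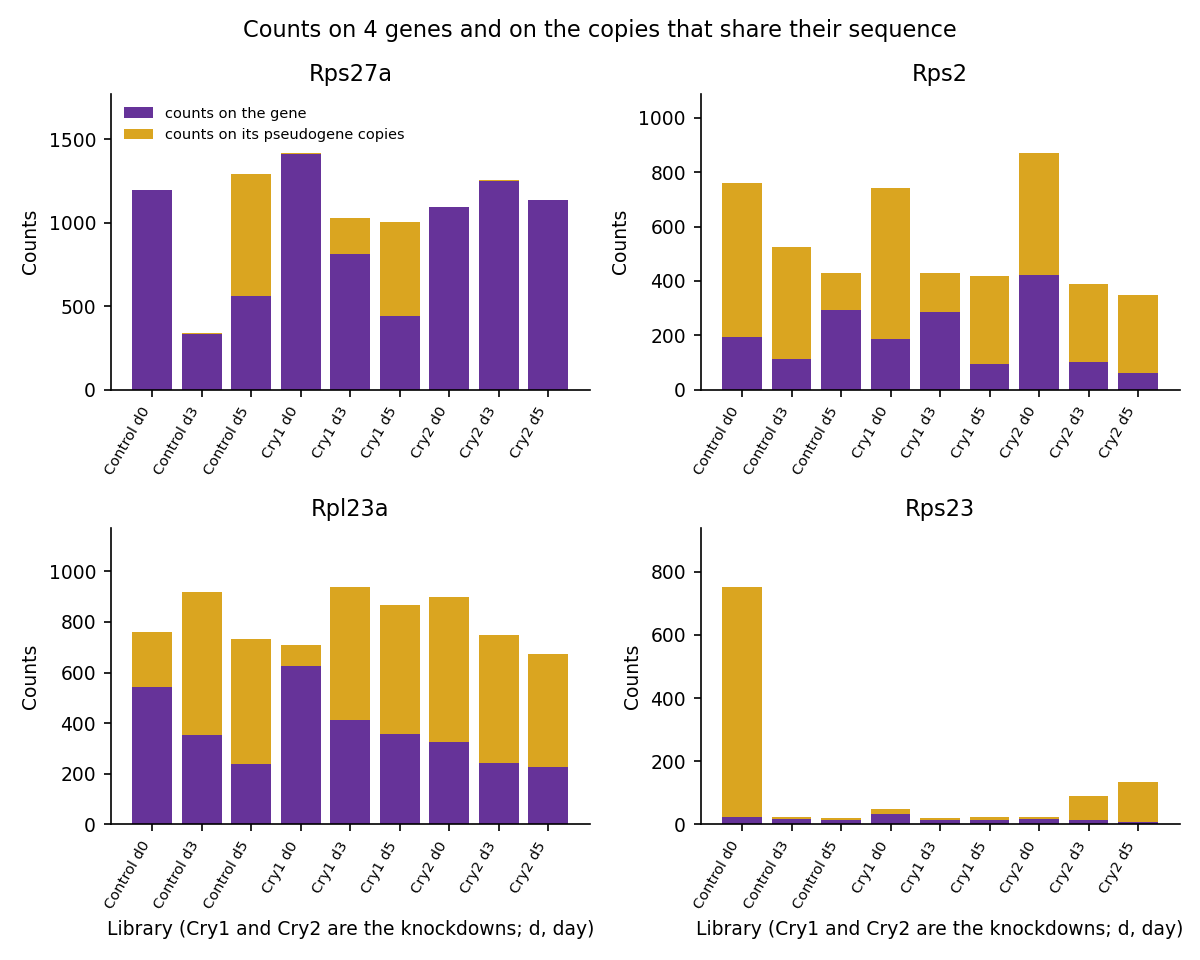
Counts (y axis, linear, from 0) on Rps27a, Rps2, Rpl23a and Rps23 (purple) and, stacked on them, on pseudogenes that share at least 10% of their 50-base words (orange), in each of the 9 libraries (x axis). Rps27a copies reach 726 counts in the Control at day 5 and 4 in each Cry2 knockdown library, and Rps23 copies reach 727 in the Control at day 0.

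The fall from day 0 to day 5 was also counted among members with fewer shared words and with copies added in. Members below 50% shared words still had up to 27.1% of the summed counts on copies, the value of Rpl14. Of these 28 members, 15 fell and 0 rose, with a median of -0.31, beside 27.9% and 28.3% of all tested genes. With copies summed into each member 43 were called, a number not split here into rises and falls. Of the 39 members called on their own counts, 37 falls and 2 rises, 36 remained called. The share of all tested genes called in that fit is not given here. From day 3 to day 5, 12 of the 28 fell in the main fit, beside 13.2% of tested genes. From day 0 to day 3, 1 rose and 2 fell, beside 25.4% and 25.7%.

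Genes that act beside the ribosomal proteins were described from lists chosen by function. Rack1, a scaffold on the small subunit, was at 1304, 1293 and 1187 CPM at day 0 in the Control, Cry1 knockdown and Cry2 knockdown and at 1051, 1154 and 836 CPM at day 5, and it fell by -0.32 ± 0.09 (SE, adjusted p = 0.0156, edgeR). Fau, a ribosomal protein made as a ubiquitin-like fusion, was at 457 to 487 CPM at day 0 and 428 to 521 CPM at day 5, with 0.04 (adjusted p = 0.72), and rose by 0.22 from day 0 to day 3 (adjusted p = 0.043). Of 17 elongation factors and other genes with TOP messenger RNAs, 6 fell and 3 rose from day 0 to day 5, with a median of -0.14, beside 27.9% and 28.3% of all tested genes. Hnrnpa1 fell by -1.49, Npm1 by -1.16 and Pabpc1 by -0.97, and Eif4a2 rose by 1.05 (adjusted p = 8.8e-07, 1.09e-05, 6.53e-05 and 2.79e-05). Eef1a1, the main elongation factor, had -0.14 (adjusted p = 0.28), and its muscle form Eef1a2 stayed at or below 11 counts.

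The genes of ribosome assembly were listed apart from the ribosomal proteins, and no test compared the 2 groups. Of 38 biogenesis and RNA polymerase I genes, 17 fell and 5 rose from day 0 to day 3, with a median of -0.30, beside 25.7% and 25.4% of tested genes. From day 3 to day 5, 0 fell and 10 rose, beside 13.2% and 14.7%. By day 3, Ncl fell by -0.97, Tcof1 by -1.13 and Ddx21 by -0.81 (adjusted p = 4.69e-05, 0.000227 and 0.000288, edgeR). All 3 proteins act in the nucleolus on ribosomal RNA synthesis or processing. Rrp12 rose by 1.00 after day 3 (adjusted p = 0.000987) and Ddx21 by 0.48 (adjusted p = 0.0122). Myc, a transcription factor that drives ribosome production, was at 61.7, 62.6 and 48.6 CPM at day 0, 38.8, 35.1 and 22.4 CPM at day 3 and 55.9, 76.5 and 56.9 CPM at day 5. It fell by -0.85 (adjusted p = 0.000976) and then rose by 0.98 (adjusted p = 0.00181), so its low point was at day 3.

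Of 22 genes of MYC, mTORC1 and TOP control, Myc included, 10 rose and 3 fell from day 0 to day 5, beside 28.3% and 27.9% of tested genes. Deptor, an inhibitor within mTOR complexes, rose by 1.55 and Rptor, the scaffold of mTORC1, by 0.90 (adjusted p = 1.6e-05 and 4.49e-05, edgeR). Larp1, the protein that holds back TOP messenger RNAs, was at 281, 293 and 241 CPM at day 0, 268, 186 and 149 CPM at day 3 and 293, 361 and 331 CPM at day 5, and rose by 0.73 after day 3 (adjusted p = 0.0123). Of 14 measured genes for import, chaperoning and surveillance of ribosomal proteins, 5 fell and 4 rose by day 5, beside the same 27.9% and 28.3%, so the count is near that of all genes. Nap1l1, a histone chaperone, fell by -0.95 and Trp53, which is stabilised when free Rpl5 and Rpl11 bind its ligase Mdm2, by -1.06, and Cdkn1a rose by 2.26 (adjusted p = 9.24e-06, 4.31e-05 and 3.85e-07). Whether these changes bear on the ribosomal protein levels was not tested.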

How the data were processed

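Raw gene counts were used as deposited by the authors, 1 file per library, made per the submitters' processing notes with CASAVA 1.8, HISAT2 2.0.2 and featureCounts 1.4.6 of Subread on mm10. The annotation, strand setting and treatment of reads with several matches are not given in the sources used here. Per the labels the library kit was TruSeq RNA v2, which does not keep strand. Identifiers were matched to GENCODE M21, which named 47223 of 47728 rows, and rows without a symbol held at most 0.033% of a library.

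The quasi-likelihood F test of edgeR 4.0.16 was run on the counts under R 4.3.3 and limma 3.58.1, with TMM factors, filterByExpr and Benjamini-Hochberg adjustment over all tested genes, at a threshold of 0.05. An additive fit of genotype and day covered 13094 genes (4 residual degrees of freedom). A fit of genotype by stage with a shared day 5 term covered 13608 genes (2 residual degrees of freedom). Standard errors are the absolute log2 fold change over the square root of F. Within-day ratios added 1 CPM, and no test compares single libraries. The scripts were tested on simulated data. Python 3.11.15, numpy 2.4.6, pandas 2.3.3, scipy 1.17.1 and matplotlib 3.10.9 did the rest.

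Members and gene lists were chosen with earlier results of these data known. Named members were the paralog pairs, the stalk genes and Rpsa, the 4 highest and 4 lowest per length, and per comparison the 5 largest rises and 5 largest falls past the threshold, or the 3 lowest p-values. Up to 4 genes were named per list, and some genes withheld for evaluation are not reported here. Lists were ubiquitin fusions and scaffold, elongation factors and other TOP genes, noncoding TOP hosts, biogenesis, MYC and mTORC1, import and surveillance, mitochondrial ribosomal proteins, ribosomal pseudogenes, and cell markers. Per-length levels used the shortest complete transcript with the principal coding sequence. Shared words are 50-base words on either strand in annotated transcripts of other genes. Alternatives were RLE factors, TMM factors without the members, no filter, DESeq2 1.42.0, only the 6 libraries compared, each library left out, and shares without mitochondrially encoded genes. Members below 50% shared words, and copies of at least 10% shared words summed in (409 pseudogenes), were added after seeing the data. No library was left out otherwise.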

Additional observations from a re-analysis of the deposited data

How the results depend on the processing

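The median log2 fold change of the members kept its direction under every alternative run in 5 of 6 additive comparisons, with ranges of -0.36 to -0.21 from day 0 to day 5, -0.36 to -0.22 from day 3 to day 5, -0.17 to -0.05 in Cry2 knockdown against Control, -0.24 to -0.11 in Cry2 against Cry1 knockdown and 0.00084 (without the Cry1 knockdown at day 5) to 0.10 in Cry1 knockdown against Control. From day 0 to day 3 it lay on either side of 0, from -0.08 to 0.03. Numbers of members called moved more. The shares of all tested genes given above are those of the main fits. Shares under the alternatives are not given here, so the numbers below have no background beside them. Without a filter on low counts, 2, 2 and 11 members were called in Cry1 knockdown against Control, Cry2 knockdown against Control and Cry2 against Cry1 knockdown, and 1 in the Cry1 knockdown response. DESeq2 called 1 in Cry1 knockdown against Control, 2 in Cry2 against Cry1 knockdown and 8 from day 0 to day 3. With only the 6 libraries compared, Cry2 against Cry1 knockdown had 2. Leaving out each library gave 0 to 5 in Cry2 against Cry1 knockdown, 5 to 12 from day 0 to day 3, 28 to 42 from day 0 to day 5, 10 to 38 from day 3 to day 5, 0 to 3 in the Cry1 knockdown response and 0 to 2 in the Cry2 knockdown response. The response fit could not be made without a day 0 library. With mitochondrially encoded genes left out of the total, the Control shares became 3.59%, 3.03% and 2.51% at days 0, 3 and 5, those of the Cry1 knockdown 3.45%, 3.25% and 2.79%, and those of the Cry2 knockdown 3.29%, 3.12% and 2.20%.

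Of 405 values of named members under an alternative, 311 kept direction and call, 91 kept direction and lost the call, and 3 turned. These 3 came with copies summed in: Rpl23a at 0.077 in Cry2 against Cry1 knockdown and 0.38 from day 0 to day 3, and Rpl29 at 0.29 from day 0 to day 5. In each the copies held more counts than the gene in most libraries. No paired analysis was possible because the labels give no replicate numbers to pair by, beyond the additive fit, which already compares days within genotypes and genotypes within days. Depth limits Rpl29, Rps23 and Rpl21, with at most 52 counts per library.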

Other observations

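The proteins of the mitochondrial ribosome are encoded by a separate set of nuclear genes, of which 77 were tested. From day 0 to day 3, 33 rose and 3 fell, beside 25.4% and 25.7% of tested genes, with a median log2 fold change of 0.26. From day 3 to day 5, 0 rose and 19 fell, beside 14.7% and 13.2%, with a median of -0.21. Mrps23 rose by 0.86 to day 3 (adjusted p = 2.74e-05, edgeR), and Mrps6 fell by -0.76 (adjusted p = 0.0019). After day 3, Mrpl18 fell by -0.64 and Mrpl12 by -0.51 (adjusted p = 0.00176 and 0.00263). From day 0 to day 5, 16 rose and 13 fell, beside 28.3% and 27.9%.

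Noncoding hosts of small nucleolar RNAs, whose transcripts carry a TOP motif like that of the ribosomal proteins, differed between the knockdowns. In Cry2 against Cry1 knockdown 6 of 7 fell, with a median of -0.81, beside 3.69% of tested genes. Gas5 was at 29.5, 32.9 and 37.6 CPM at days 0, 3 and 5 of the Cry1 knockdown. The values were 19.7, 16.5 and 18.1 CPM for the Cry2 knockdown and 23.9, 19.7 and 32.4 CPM for the Control. It fell by -0.87 ± 0.15 (SE, adjusted p = 0.0112, edgeR), with each Cry2 knockdown library below each Cry1 knockdown library. Snhg1 fell by -0.81 and Snhg6 by -0.85 (adjusted p = 0.0158 and 0.0206). Against the Control, all 7 had negative values in the Cry2 knockdown and positive values in the Cry1 knockdown, and 0 passed in either, with 4 and 3 at an unadjusted p under 0.05. The libraries do not keep strand, so reads of Epb41l4aos, a member of this list, cannot be told apart from those of its sense partner.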
